A study of Mus musculus with 138 samples.

Results

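In mouse 2-cell embryos with and without the maternal chromatin remodeller SMARCA5, 25900 genes were counted. Of these, 7 were chosen that encode components of the egg coat or factors that the oocyte secretes. They were taken by name: Gdf9, Bmp15, Zp1, Zp2, Zp3, Oosp1 and Plat, and all 7 were found in both count tables. Polyadenylated RNA was sequenced from 135 wells with embryo material and 3 wells without an embryo. In the deletion experiment, 2-cell embryos of the genotype Smarca5 +/- (mat KO), made by crossing females lacking Smarca5 with males not carrying the deletion, were set against Smarca5 +/+ embryos. These groups are called maternal deletion (33 libraries) and wild type (26 libraries) here, although the titles of both groups name matKO females. In the TrimAway experiment, SMARCA5 protein was degraded in WT zygotes and the libraries were made from the 2-cell embryos that followed. TrimAway uses an antibody and TRIM21, an antibody receptor that directs the bound protein to degradation. Its groups are anti-SMARCA5 (33 libraries), a control antibody named IgG (27 libraries) and an uninjected control (16 libraries). Per the design text the replicates are technical ones made from pooled embryos, so p-values measure the spread between libraries. How the gene was deleted in the mothers, and what promoter drove a recombinase there, is not given in the sources used here.

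GDF9 and BMP15 are related growth factors of the TGF-beta family that the oocyte secretes to act on the granulosa and cumulus cells around it. ZP1, ZP2 and ZP3 are glycoproteins of the zona pellucida, the coat that sperm bind and penetrate. OOSP1 is a secreted protein of the oocyte, and Plat encodes tissue-type plasminogen activator, a protease whose mRNA is stored in mouse oocytes and translated during meiotic maturation. All are transcribed in the growing oocyte, and much of the stored maternal mRNA is lost by the 2-cell stage, when the embryo's own genome becomes active. Cre transgenes for oocytes are commonly built with promoter sequence of Zp3 or Gdf9. Counts per gene do not separate reads of the native Gdf9 gene from reads of a transgene that carries Gdf9 sequence, and the part of such a transgene in the Gdf9 counts was not tested.

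Libraries with at least 100000 counts were kept, 116 of 135, and ranged from 109007 to 12004992 counts. They comprised 28 maternal deletion, 22 wild type, 31 anti-SMARCA5, 20 IgG and 15 uninjected libraries. Depth differed between the groups compared: in replicate 2 of the deletion experiment the median library held 4686050 counts under maternal deletion and 650104 in wild type. Levels are given as CPM, a gene's counts per 1000000 gene counts of its library. Smarca5 itself had a median of 82.2 CPM under maternal deletion and 443 CPM in wild type (edgeR quasi-likelihood test, log2 fold change -2.06 ± 0.31 SE, adjusted p = 2.63e-07). In replicate 2, 3 libraries went against their labels or stood apart in that gene. The library labelled maternal deletion in well A04 had Smarca5 at 349 CPM, the highest of its group. The wild-type libraries in wells G05 and H05 had it at 158 and 209 CPM, the lowest wild-type values of replicate 2. Wild type of replicate 1 reached down to 191 CPM, so H05 lay within the range of that replicate. In TrimAway the protein is the target, so the Smarca5 mRNA does not check those labels. Its median was 336 CPM in anti-SMARCA5, 693 in IgG and 601 CPM in uninjected libraries. Trim21 was above the highest uninjected library in 30 of 31 anti-SMARCA5 and 8 of 20 IgG libraries. Of 10 markers of granulosa and cumulus cells, 8 had a median of 0 under maternal deletion and 9 in wild type. The summed level of the 10 was 0 to 89.0 CPM (median 33.5) under maternal deletion and 0 to 57.5 CPM (median 7.35) in wild type. The summed level of the 7 measured markers of the 2-cell stage was 0 to 1523 CPM (median 45.5) under maternal deletion and 55.9 to 1229 CPM (median 469) in wild type. Their part in the results below was not tested.

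All 7 genes passed the filter on low counts and were higher after maternal deletion than in wild type. Across all 8518 genes tested, 30.3% were called higher in that comparison and 56.6% were called in either direction (edgeR, adjusted p below 0.05). The median log2 fold change of the 7 was 3.29, against 0.18 over all genes tested. The 7 were chosen with earlier results of these data known, so their share and median describe them and test nothing. Zp1 and Plat reached the level that the filter asks for through the maternal deletion libraries, and the wild-type libraries alone would not have reached it. The rises were unequal: Plat, Gdf9, Zp1 and Zp2 took places 2, 6, 60 and 227 among the 8518 genes ordered by rise, whereas Oosp1, Bmp15 and Zp3 took places 1544, 1792 and 1902.

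**Figure D1:**
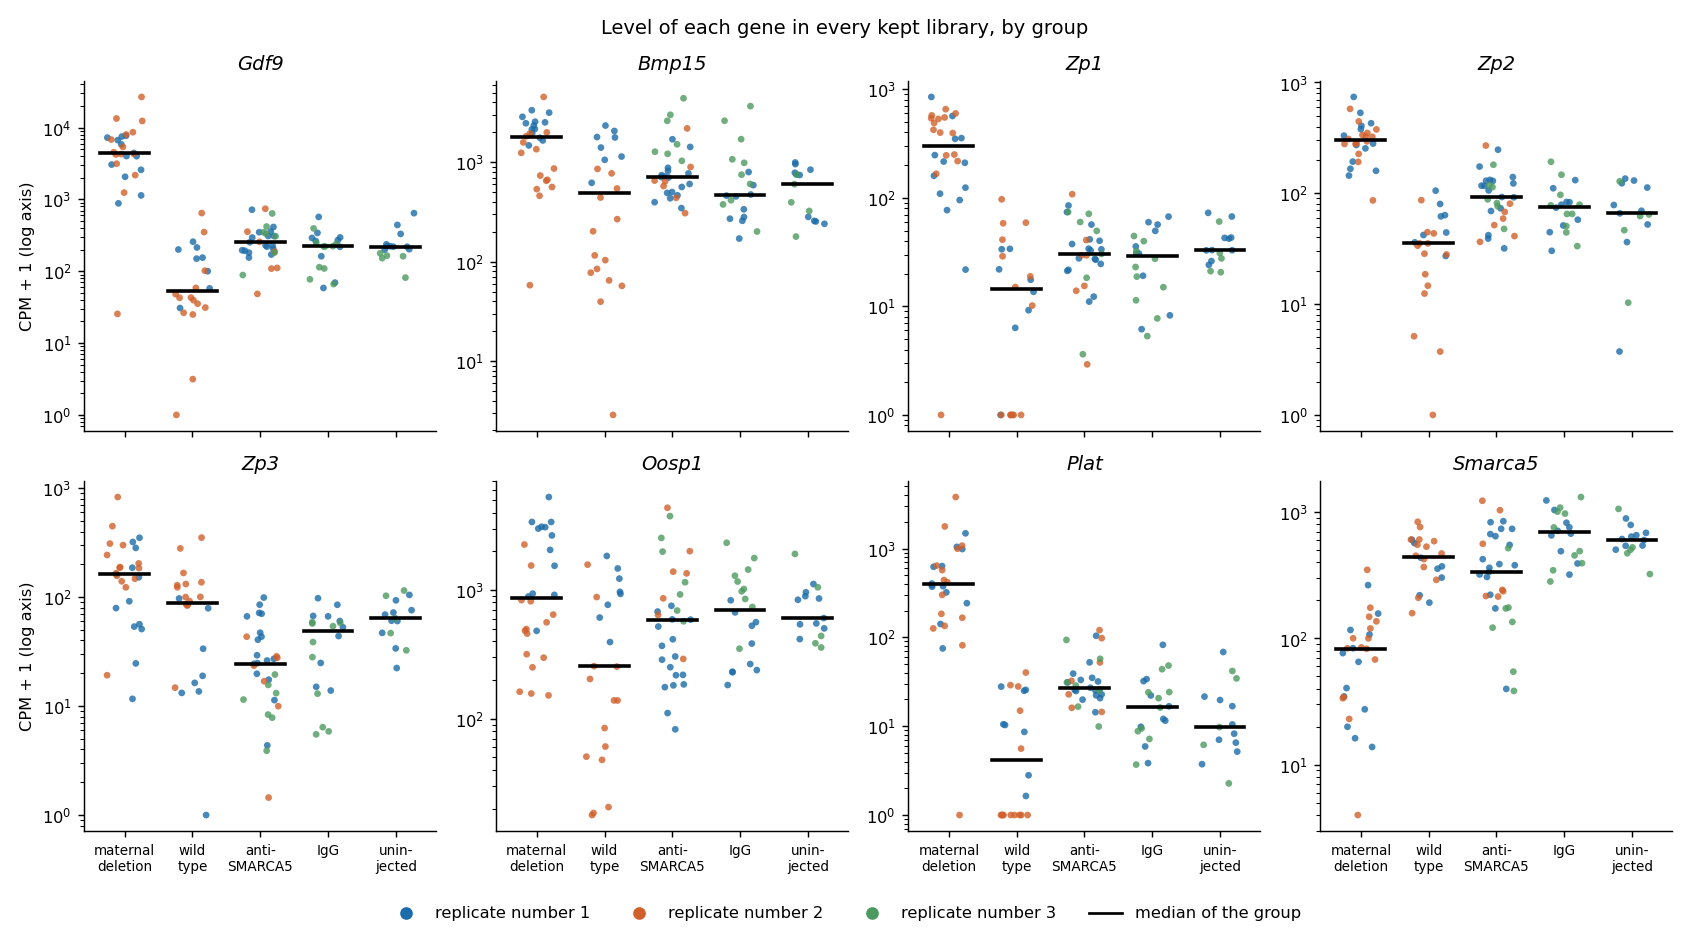
CPM + 1 (log axis) of the 7 genes and Smarca5 in each of the 116 kept libraries, by group, with 1 point per library, the colour giving the replicate number and the black line the group's median. In the Gdf9 panel, 27 of the 28 maternal deletion libraries lie above every wild-type library and the remaining point is well A04 at 24.5 CPM, whereas in the Zp3 panel only 2 of the 28 do.

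The growth factor genes Gdf9 and Bmp15 diverged. Gdf9 ranged from 24.5 to 26736 CPM with a median of 4377 CPM under maternal deletion, and from 0 to 645 CPM with a median of 52.0 CPM in wild type, where the highest values were those of wells G05 and H05 and the maximum without them was 257 CPM. The 2 groups overlapped only through well A04, since 27 of 28 maternal deletion libraries were above every wild-type library and the second-lowest had 881 CPM. The fitted rise was 56.3-fold (edgeR, log2 5.81 ± 0.54 SE, n = 28 and 22, adjusted p = 3.8e-12). Bmp15 ranged from 57.0 to 4544 CPM with a median of 1795 CPM under maternal deletion, and from 1.87 to 2340 CPM with a median of 492 CPM in wild type. Here 8 of 28 libraries were above every wild-type library. Its rise was 2.70-fold (edgeR, log2 1.43 ± 0.44 SE, adjusted p = 0.00501).

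The libraries at the extremes show how far Gdf9 varied. In well F03 of replicate 2, labelled maternal deletion, Gdf9 accounted for 44702 of 1672012 counts, 2.67% of the library (Wilson 95% interval 2.65 to 2.70%), while Smarca5 had 5 counts. In well A04, Gdf9 had 77 of 3141872 counts, or 24.5 CPM (Wilson 95% interval 19.6 to 30.6 CPM), and Zp1 and Plat had none. With 3 counts taken as the limit of a count of 0, that allows up to 0.955 CPM each (Wilson upper limit 1.22 CPM). The other genes in A04 were Bmp15 at 57.0, Zp2 at 85.3, Zp3 at 187, and Oosp1 at 151 CPM. At the low end of wild type, well B02 of replicate 2 had no count of Gdf9, Zp1, Zp2 or Plat among 536224. By the same limit of 3 counts, that allows up to 5.59 CPM each (Wilson upper limit 7.16 CPM). Zp3 reached 351 CPM in B02, the highest of its group. These intervals and limits cover counting error only.

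Among the zona pellucida genes the rise was largest for Zp1 and smallest for Zp3. Zp1 ranged from 0 to 849 CPM with a median of 299 CPM under maternal deletion, and from 0 to 95.9 CPM with a median of 13.3 CPM in wild type. Above every wild-type library were 24 of 28 maternal deletion libraries, and the rise was 19.4-fold (log2 4.28 ± 0.58 SE, edgeR adjusted p = 4.19e-08). In wild type, 9 of 22 libraries had 3 or fewer Zp1 counts, so the fold rests on counts near the limit of detection. Zp2, whose product is cleaved after fertilization to block further sperm, ranged from 85.3 to 740 CPM (median 301) under maternal deletion and from 0 to 105 CPM (median 34.3) in wild type. All maternal deletion libraries except A04 were above the highest wild-type library, and the rise was 9.81-fold (log2 3.29 ± 0.34 SE, edgeR adjusted p = 4.25e-11). Zp3 overlapped between the groups over almost the whole range. It spanned 10.7 to 828 CPM (median 163) under maternal deletion and 0 to 351 CPM (median 88.0) in wild type, with a 2.60-fold rise (log2 1.38 ± 0.36 SE, edgeR adjusted p = 0.000974) and only 2 of 28 libraries above the wild-type maximum. That maximum is well B02, and without it, a choice made after its value was seen, the maximum was 279 CPM and 7 of 28 were above it.

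Oosp1 and Plat, both secreted, rose by very different amounts. Oosp1 spanned 151 to 5283 CPM (median 862) under maternal deletion and 16.8 to 1839 CPM (median 254) in wild type. It rose 3.03-fold (log2 1.60 ± 0.49 SE, edgeR adjusted p = 0.00503), with 9 of 28 libraries above the wild-type maximum. Plat spanned 0 to 3795 CPM (median 393) under maternal deletion and 0 to 39.2 CPM (median 3.20) in wild type. Every maternal deletion library except A04 was above the highest wild-type library, and the fitted rise was 67.8-fold (log2 6.08 ± 0.67 SE, edgeR adjusted p = 2.5e-10). Since 13 of 22 wild-type libraries had 3 or fewer Plat counts, the size of this fold depends on values near 0.

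The sequence upstream of the start was in the RefSeq table for 3 of the 7 genes (GRCm38.p6), and these happen to be the 3 with the smallest rise. They are shown to set the letters of known oocyte motifs beside that rise: capitals mark the E-box CANNTG, which is bound by FIGLA and other bHLH factors, and would also mark TAATTG, a binding sequence of the oocyte factor NOBOX. Each runs 5′ to 3′ on the gene's strand and ends at the base before the most upstream annotated start.
Bmp15, chrX:6320725-6320974, minus strand: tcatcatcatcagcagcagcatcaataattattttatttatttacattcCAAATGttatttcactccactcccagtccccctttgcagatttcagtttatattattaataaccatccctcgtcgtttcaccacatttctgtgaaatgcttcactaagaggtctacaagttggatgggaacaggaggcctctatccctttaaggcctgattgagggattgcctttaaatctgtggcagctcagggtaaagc
Zp3, chr5:135979855-135980098, plus strand: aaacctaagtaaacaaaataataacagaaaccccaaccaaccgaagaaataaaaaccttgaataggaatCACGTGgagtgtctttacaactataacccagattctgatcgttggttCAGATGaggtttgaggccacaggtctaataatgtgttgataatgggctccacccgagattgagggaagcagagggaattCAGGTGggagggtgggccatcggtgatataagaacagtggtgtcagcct
Oosp1, chr19:11691151-11691301, minus strand: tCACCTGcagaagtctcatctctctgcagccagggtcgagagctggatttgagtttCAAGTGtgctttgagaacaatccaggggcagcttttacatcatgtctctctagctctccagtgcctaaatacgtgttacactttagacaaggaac
The Bmp15 window of 250 bases held 1 E-box, whose first base lies 201 bases before the start. The Zp3 window of 244 bases held 3, at 175, 128 and 49 bases before the start, and the Oosp1 window of 151 bases held 2, at 150 and 95. Both strands were searched, and CACGTG, found in Zp3 only, is itself one form of CANNTG. Among 32851 promoters cut to the same lengths, CANNTG was in 66.2%, 65.6% and 49.5%, so a match of this motif is common, and CACGTG was in 6.0%, 5.8% and 2.9%. TAATTG was in none of the 3 windows and in 7.2%, 7.1% and 4.7% of all promoters.

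**Figure D2:**
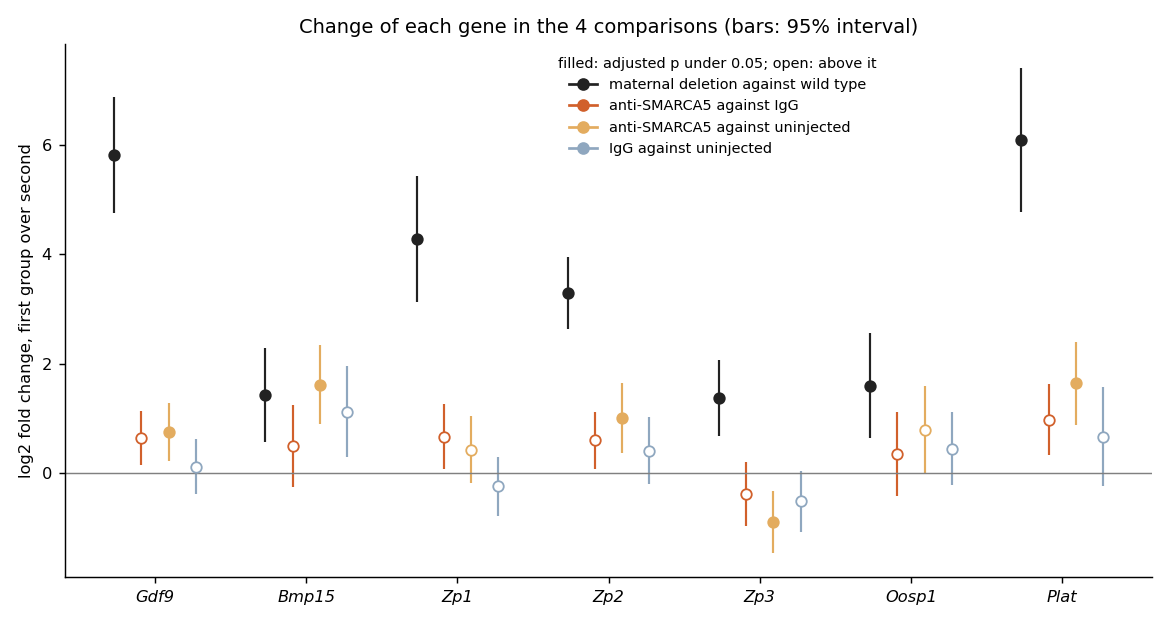
Log2 fold change of each of the 7 genes in 4 comparisons, with bars for the 95% interval and filled points for an adjusted p below 0.05. All 7 black points (maternal deletion against wild type) are filled and lie between 1.38 and 6.08, no point of anti-SMARCA5 against IgG is filled, and Zp3 lies below 0 in every TrimAway comparison.

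Per kilobase of exon, which allows genes to be compared, the order of the genes differed between groups and between replicates. Under maternal deletion the median level of Oosp1 was 2733 CPM per kb in replicate 1 and 496 in replicate 2, that of Gdf9 1978 and 2235, and that of Bmp15 767 and 282 CPM per kb, so Oosp1 led in replicate 1 and Gdf9 in replicate 2. In wild type Oosp1 led in both replicates, at 976 and 114 CPM per kb. Bmp15 was second in replicate 1 (520 CPM per kb, against 74.6 for Gdf9), and Zp3 in replicate 2 (83.7 CPM per kb, against 35.5 for Bmp15 and 19.8 for Gdf9). Plat was the lowest of the 7 in all 5 groups, from 0.513 CPM per kb in wild type to 63.0 CPM per kb under maternal deletion. No gene of the 7 shares exon or intron with another gene of the GENCODE M21 annotation: on GRCm38, Gdf9 is at chr11:53431023-53437904 (plus strand), Zp1 at chr19:10914287-10920632 (minus), Zp2 at chr7:120132361-120145290 (minus) and Plat at chr8:22757744-22782847 (plus).

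The wild-type libraries of the 2 replicates differed in these genes, so the comparison was repeated within each replicate. In the deletion experiment each replicate was sequenced in a lane of its own. Differences between the replicates in embryos and in lane therefore cannot be told apart. Wild-type Bmp15 had a median of 1591 CPM in replicate 1 (8 libraries) and 108 CPM in replicate 2 (14 libraries), and Oosp1 had 949 and 110 CPM. Gdf9 had 151 and 40.2 CPM, while Zp3 went the other way with 16.6 and 111 CPM. Under maternal deletion the medians for replicates 1 and 2 were 4017 and 4540 CPM for Gdf9, 2346 and 864 CPM for Bmp15, and 2657 and 482 CPM for Oosp1. Bmp15 and Oosp1 were thus lower in replicate 2 in both genotypes, whereas the Gdf9 medians under maternal deletion were close.

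Gdf9, Zp1, Zp2, Zp3, Plat and Bmp15 were called higher under maternal deletion in each replicate taken alone. The background was 43.8% of genes called in either direction in replicate 1 and 39.9% in replicate 2. Called higher were 1508 of 6389 genes in replicate 1 and 2347 of 9730 in replicate 2. Gdf9 was 33.4-fold higher in replicate 1, with all 13 libraries above every wild-type library, and 83.0-fold higher in replicate 2 (log2 5.06 ± 0.45 and 6.38 ± 0.84 SE, edgeR adjusted p = 6.67e-09 and 1.23e-06). Plat was 53.8-fold and 88.3-fold higher (adjusted p = 5.6e-08 and 1.72e-05). Bmp15 was 1.65-fold higher in replicate 1 and 6.45-fold in replicate 2 (log2 0.72 ± 0.23 and 2.69 ± 0.57 SE, edgeR adjusted p = 0.0139 and 0.000428). Zp3 was 4.62-fold and 2.55-fold higher (adjusted p = 0.00298 and 0.0045). Oosp1 was called in replicate 1 alone, at log2 1.37 ± 0.37 and 1.47 ± 0.62 (SE, adjusted p = 0.00403 and 0.0574), and these sizes are close.

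**Figure D3:**
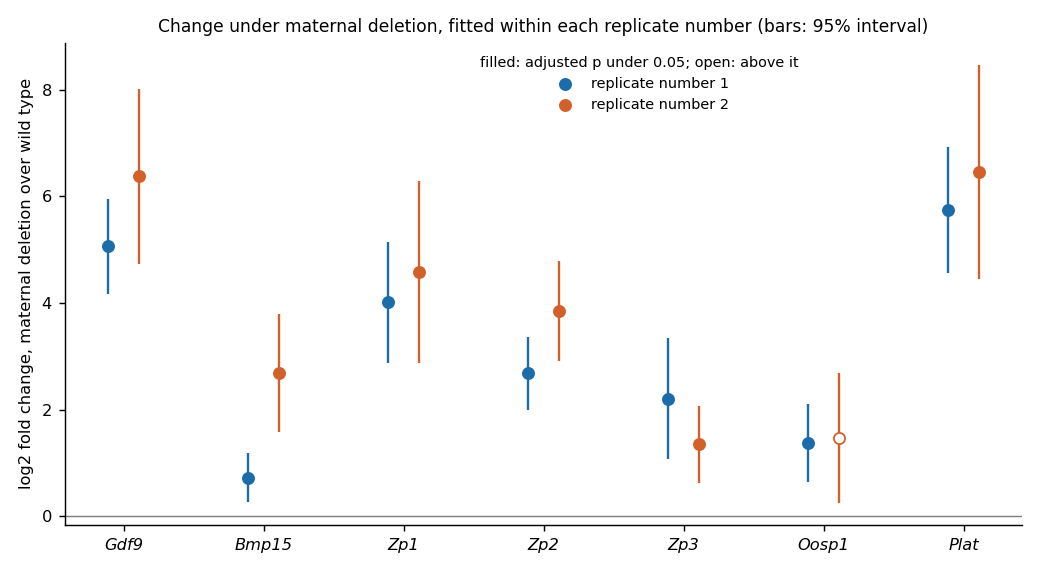
Log2 fold change between maternal deletion and wild type for each of the 7 genes, fitted within replicate 1 (13 and 8 libraries) and replicate 2 (15 and 14 libraries), with bars for the 95% interval and filled points for an adjusted p below 0.05. Gdf9 and Plat lie above 5 in both replicates, Bmp15 moves from 0.72 to 2.69, and Oosp1 in replicate 2 is the only open point.

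A test of the difference between the replicates called none of the 7 genes and 65 of 8518 genes in all, 0.763%, with 1366 genes at an unadjusted p below 0.05. The Bmp15 rise was larger in replicate 2 by 1.85 ± 0.66 on the log2 scale (SE, edgeR adjusted p = 0.144), and the Gdf9 rise by 1.24 ± 0.86 (adjusted p = 0.490). This result depended on 3 libraries. Without wells A04, G05 and H05, a choice made after their values were known, the difference was 2.95 for Gdf9, 2.67 for Bmp15 and 1.61 for Zp2 (adjusted p = 0.00123, 0.00134 and 0.0337), and 1060 genes were called.

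After TrimAway none of the 7 genes was called between anti-SMARCA5 and IgG, where 3.03% of 10447 genes were called (1.73% higher and 1.3% lower). Gdf9 ranged from 47.5 to 741 CPM (median 253) in anti-SMARCA5 and from 57.5 to 570 CPM (median 221) in IgG, and the groups overlapped over nearly the whole range. Its log2 fold change was 0.64 (95% interval 0.15 to 1.14, edgeR adjusted p = 0.101). Plat had medians of 26.1 and 15.5 CPM and a log2 fold change of 0.98 (95% interval 0.33 to 1.63, adjusted p = 0.071). Zp2 had medians of 91.0 and 75.0 CPM, Zp1 29.4 and 28.0 CPM, and Oosp1 588 and 703 CPM (adjusted p = 0.138, 0.150 and 0.567). Zp3 had medians of 23.4 and 47.4 CPM and was the only one of the 7 with a fitted value below 0, a log2 fold change of -0.37 (95% interval -0.95 to 0.21, adjusted p = 0.410). Bmp15 had medians of 718 and 467 CPM and a log2 fold change of 0.49 (adjusted p = 0.396), but it was called, at 0.99 (adjusted p = 0.0221), once replicate number entered the fit as a block. With that block 2691 genes were called in place of 317.

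IgG and anti-SMARCA5 libraries share replicates 1 and 3, and within replicate 1 none of the 7 was called (0.857% of genes called). Within replicate 3, with 7 anti-SMARCA5 and 10 IgG libraries, 16.5% of genes were called and among the 7 only Gdf9 was, 2.20-fold higher (log2 1.14 ± 0.34 SE, edgeR adjusted p = 0.0286), with medians of 332 and 220 CPM and 2 of 7 libraries above the IgG maximum. The difference in Gdf9 between these replicates was not tested. Only part of the IgG libraries lay above the uninjected ones in Trim21, so IgG was not a uniform control. Whether that part differs between replicates 1 and 3 was not tested, so the fits within them may rest on unlike controls. Scaling mattered for the count of all genes: the 317 calls comprised 181 higher and 136 lower, against 17 higher and 47 lower when libraries were scaled by total counts only.

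Against the uninjected embryos 4 of the 7 were called higher in anti-SMARCA5 and 1 lower, with 27.9% of 10750 genes called (17.5% higher and 10.4% lower). Plat rose 3.12-fold, from a median of 8.76 to 26.1 CPM (adjusted p = 0.00287), and all 31 anti-SMARCA5 libraries were above the uninjected median. Bmp15 rose 3.07-fold (log2 1.62 ± 0.37 SE, adjusted p = 0.00232), although its medians of 718 and 600 CPM were close. The 7 libraries of replicate 3 had the highest anti-SMARCA5 median of Bmp15, 1515 CPM, with a range of 1033 to 4408 CPM. Zp2 rose 2.02-fold (medians 91.0 and 64.9 CPM, adjusted p = 0.0184), and Gdf9 rose 1.68-fold (medians 253 and 219 CPM, adjusted p = 0.0324). Zp3 fell, from a median of 63.0 to 23.4 CPM (log2 -0.88 ± 0.29 SE, adjusted p = 0.0205). Zp1 had medians of 29.4 and 31.9 CPM and Oosp1 588 and 604 CPM (adjusted p = 0.292 and 0.129).

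These calls depended on the replicates and the scaling. Without replicate 1 none of the 7 was called, and over all genes only Trim21 was. Without replicate 3, Plat remained called, while Bmp15, Zp2, Gdf9 and Zp3 were not (adjusted p = 0.0547, 0.0931, 0.340 and 0.200). With scaling by total counts only, the log2 fold changes of Gdf9 and Zp2 were 0.24 and 0.46 (adjusted p = 0.498 and 0.239), and calls over all genes moved from 1885 higher and 1114 lower to 409 higher and 1874 lower. Within replicate 3, where 26.7% of genes were called, Bmp15 was 7.21-fold higher, with all 7 anti-SMARCA5 libraries above the 5 uninjected ones (edgeR adjusted p = 0.00355). Gdf9 was 3.14-fold higher there (adjusted p = 0.0123) and Zp3 was lower, at log2 -2.24 ± 0.51 (SE, adjusted p = 0.00818). Within replicate 1, where 15.6% were called, Plat was the only one of the 7 called (2.70-fold, adjusted p = 0.0248), and Bmp15 had a 1.67-fold difference (adjusted p = 0.101).

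Between IgG libraries, some of which held Trim21, and uninjected ones edgeR called no gene (0 of 9915, 0%), with 1440 genes at an unadjusted p below 0.05, while DESeq2 called 269. Among the 7, Bmp15 had the largest fitted difference, log2 1.12 ± 0.42 (SE, adjusted p = 0.210), although its medians went the other way, at 467 and 600 CPM. The 3 TrimAway comparisons share their groups in pairs, so they are not independent of each other.

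The change after maternal deletion was larger than the change after TrimAway for 5 of the 7 genes, when the deletion effect minus the anti-SMARCA5 effect against IgG was tested. In that test 19.2% of 12035 genes were called. The difference was 5.09 ± 0.52 on the log2 scale for Gdf9, 5.06 ± 0.66 for Plat, 3.57 ± 0.60 for Zp1, 2.62 ± 0.40 for Zp2 and 1.66 ± 0.46 for Zp3 (SE, edgeR adjusted p = 1.52e-12, 7.97e-09, 5.45e-06, 6.1e-07 and 0.00672). For Bmp15 it was 0.82 ± 0.58 and for Oosp1 1.16 ± 0.63 (adjusted p = 0.325 and 0.184). The 2 experiments were separate tables, and the controls differed: Gdf9 had a median of 52.0 CPM in wild type against 221 in IgG and 219 CPM in uninjected embryos, and Plat had 3.20 against 15.5 and 8.76 CPM.

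Across all 5 groups, with replicates pooled, each of the 7 genes had its highest median under maternal deletion. By replicate this did not hold for Oosp1, Bmp15 and Zp3. Oosp1 in replicate 2 of maternal deletion had a median of 482 CPM, below replicates 2 and 3 of anti-SMARCA5 (1346 and 1149 CPM), replicate 3 of IgG (1090 CPM), and replicate 1 of uninjected (721 CPM) and of wild type (949 CPM). Bmp15 in that replicate had 864 CPM, below replicate 3 of anti-SMARCA5 (1515 CPM) and of IgG (868 CPM) and replicate 1 of wild type (1591 CPM), and Zp3 in replicate 1 of maternal deletion had 90.6 CPM, below replicate 2 of wild type (111 CPM). For Gdf9 the order was maternal deletion, anti-SMARCA5, IgG, uninjected and wild type, and apart from A04 no maternal deletion library overlapped any library of the other 4 groups, whose highest was 741 CPM. Zp2 and Plat followed the same order, and their neighbouring control groups overlapped. Bmp15 had wild type and IgG last, at 492 and 467 CPM, and all 5 groups overlapped. Zp3 ran from maternal deletion at 163 CPM through wild type at 88.0, uninjected at 63.0 and IgG at 47.4 to anti-SMARCA5 at 23.4 CPM. The coefficient of variation of Oosp1 within a replicate was 59.5%, 87.3% and 70.4% in anti-SMARCA5 and 45.9% and 164% in wild type.

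Ratios within a library do not depend on how libraries are scaled to each other. The log2 ratio of Gdf9 to Bmp15, from CPM with a pseudocount of 1, was 1.46 ± 1.64 (SD, n = 28) under maternal deletion and -2.41 ± 1.48 (SD, n = 22) in wild type. The difference of 3.87 gave p = 1e-05, the smallest that the 100000 resamples of the two-sided permutation test allow (4e-05 adjusted over the 4 ratio tests), and 24 of 28 libraries were above every wild-type library. Between anti-SMARCA5 and IgG the same ratio was -1.77 ± 1.07 and -1.60 ± 1.69 (SD, n = 31 and 20, permutation p = 0.669). The ratio of Gdf9 to Plat did not separate the genotypes, with 3.49 ± 1.11 under maternal deletion and 3.68 ± 1.84 in wild type (permutation p = 0.647). That value leans on the pseudocount, since Plat was at or near 0 in most wild-type libraries: with a pseudocount of 10 CPM the difference was 1.14 in place of -0.19 (permutation p = 0.00065). Between anti-SMARCA5 and IgG the ratio of Gdf9 to Plat was 2.99 ± 0.70 and 3.57 ± 1.23 (permutation p = 0.0345, 0.069 adjusted over the 4).

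**Figure D4:**
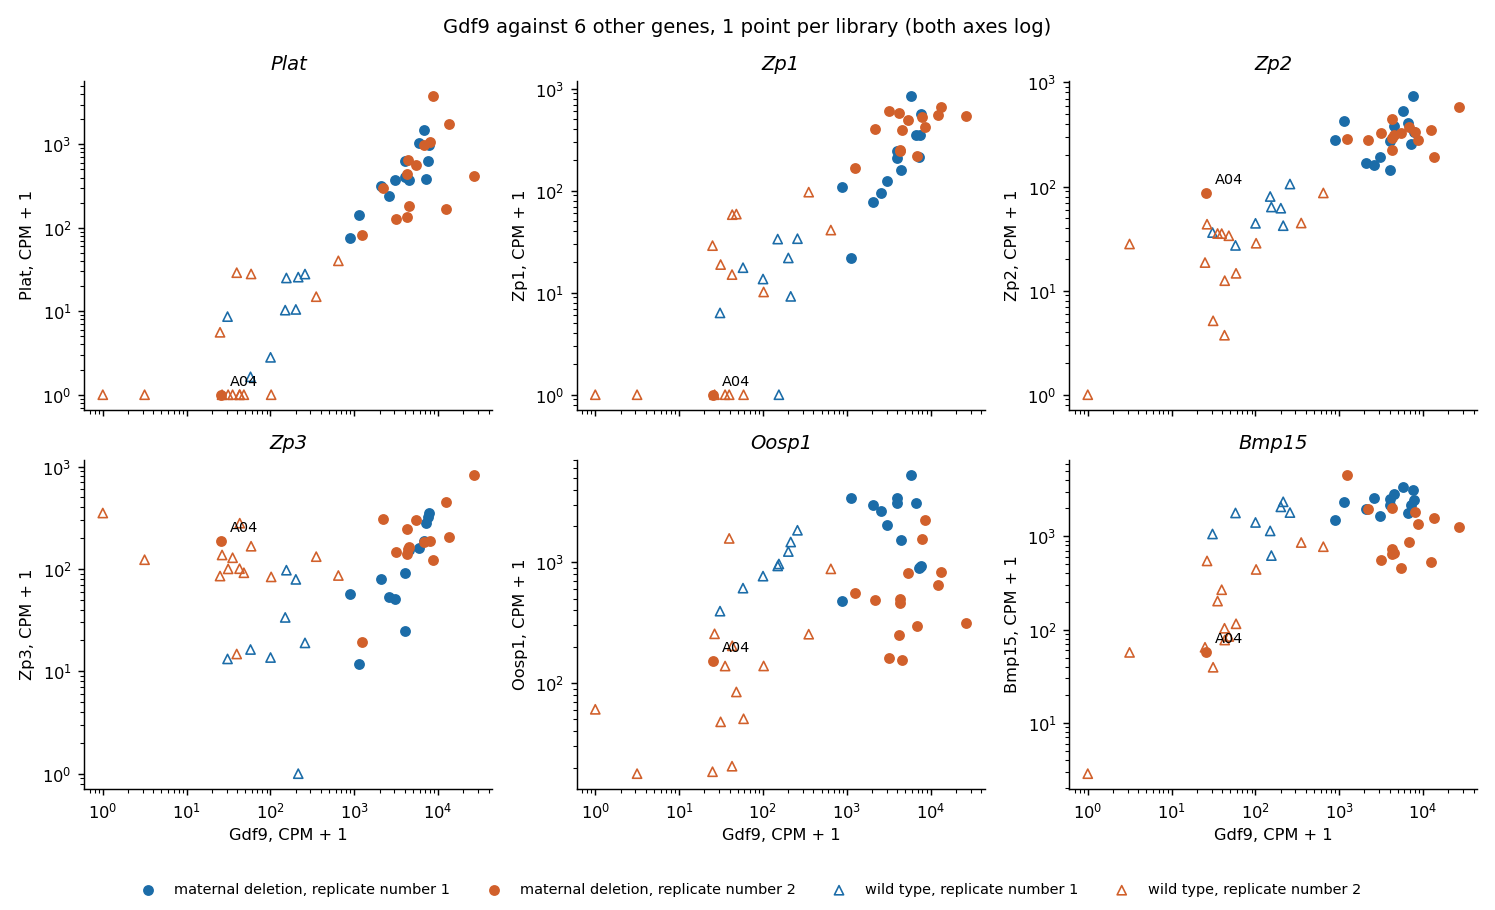
Level of Plat, Zp1, Zp2, Zp3, Oosp1 and Bmp15 against Gdf9 in the libraries of the deletion experiment (CPM + 1, both axes log), with filled circles for maternal deletion, open triangles for wild type, colours for the replicate number and well A04 named. Plat and Zp1 rise with Gdf9 among the filled circles (r = 0.86 and 0.89), and A04 lies among the wild-type points. For Oosp1 and Bmp15 the points of both replicates overlap, although the medians are lower in replicate 2.

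Within the 28 maternal deletion libraries, Gdf9 varied together with Plat and Zp1. These correlations use log2(CPM + 1), whose values share a library total, and 14 relations were computed over both SMARCA5-depleted groups. For Plat, Pearson's r was 0.86 and Spearman's rho 0.70 (permutation p = 1e-05 and 7e-05, adjusted 4.67e-05 and 0.00056), with r = 0.88 over the 13 libraries of replicate 1 and 0.87 over the 15 of replicate 2, which became 0.52 without A04. Without the 2 libraries farthest from the Gdf9 median, A04 and F03, r was 0.71. For Zp1, r was 0.89 and rho 0.68 (permutation p = 1e-05 and 0.00012, adjusted 4.67e-05 and 0.00056), 0.81 and 0.92 within replicates (0.54 in replicate 2 without A04), and 0.70 without A04 and F03. For Zp3, r was 0.41 and rho 0.64 (permutation p = 0.0351 and 0.00032, adjusted 0.0491 and 0.000896), 0.78 and 0.34 within replicates (0.71 in replicate 2 without A04), and r was 0.72 without A04 and F03.

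Of the other relations of Gdf9 under maternal deletion, those with Zp2, Bmp15 and Oosp1 rested on 1 or 2 libraries or were weak. For Zp2, r fell from 0.58 (permutation p = 0.00234, adjusted 0.00546) to 0.19 without A04 and F03, with rho = 0.42 (p = 0.0265, adjusted 0.0464). For Bmp15, r was 0.46 and rho -0.11 (permutation p = 0.0345 and 0.578, adjusted 0.0491 and 0.622), and r was -0.24 without them. For Oosp1, r was 0.21 and rho 0.04 (permutation p = 0.312 and 0.854, adjusted 0.336 and 0.854). For Smarca5, r was -0.58 and rho -0.38 (permutation p = 0.00302 and 0.046, adjusted 0.00604 and 0.0716), and r was -0.37 without A04 and F03. Within replicates 1 and 2, r for Smarca5 was -0.52 and -0.64, and it stayed at -0.64 in replicate 2 without A04. The values of rho there were -0.31, -0.50 and -0.39.

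In the 31 anti-SMARCA5 libraries Gdf9 again varied together with Zp1, Plat and Zp2, at levels near the controls. For Zp1, r was 0.77 and rho 0.66 (permutation p = 1e-05 and 9e-05, adjusted 4.67e-05 and 0.00056), and for Plat 0.67 and 0.62 (p = 5e-05 and 0.00029, adjusted 0.000175 and 0.000896). For Zp2, r was 0.56 and rho 0.53 (permutation p = 0.00097 and 0.00269, adjusted 0.00272 and 0.00538). Smarca5 mRNA varied inversely with Gdf9, with r = -0.50 and rho = -0.57 (permutation p = 0.00425 and 0.00107, adjusted 0.00744 and 0.0025). Without the 2 libraries farthest from the Gdf9 median these 4 values of r were 0.64, 0.65, 0.48 and -0.53. Within replicates 1, 2 and 3, r was 0.54, 0.82 and 0.88 for Zp1, 0.63, 0.76 and 0.88 for Plat, and 0.44, 0.69 and 0.52 for Zp2. Bmp15, Zp3 and Oosp1 had r = 0.29, 0.25 and 0.15 (permutation p = 0.118, 0.179 and 0.430).

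Over the 28 maternal deletion libraries, the genes whose pattern was most like that of Gdf9 among 8517 others included Nceh1, Smoc2, Astl and Fam132a, with Spearman's rho of 0.87, 0.87, 0.86 and 0.85. Smoc2 encodes a secreted matrix protein and Astl ovastacin, the cortical granule protease that cleaves ZP2. By the same measure Plat ranked 37, Zp1 56, Zp3 86, Zp2 671, Oosp1 4073 and Bmp15 5986. These values describe a ranking and carry no test.

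Genes that act with the 7 were counted from fixed lists, which were chosen with earlier results of these data known. The counts are to be read against the 30.3% of all tested genes called higher and the 26.4% called lower after maternal deletion. A gene counted in few wild-type libraries passed the low-count filter only if it was high under maternal deletion, so these counts do not support a direction for a list. Of the egg surface and cortical granule genes, 7 of 11 entries were in the tables and 5 were tested between maternal deletion and wild type, of which 4 were called higher and 1 lower, against 30.3% and 26.4% of all genes. Those 4 would not have passed the filter on wild-type libraries alone. Astl rose from a median of 0 to 68.6 CPM (log2 5.43 ± 0.76 SE, adjusted p = 7.81e-08). Folr4, the older symbol of Izumo1r, the egg receptor for sperm IZUMO1, had medians of 27.7 and 0 CPM (adjusted p = 8.01e-05), and the proprotein convertase gene Furin 94.6 and 2.64 CPM (adjusted p = 1.39e-09). Cd9, a tetraspanin of the egg membrane needed for sperm fusion, fell from 136 to 40.6 CPM (log2 -1.07 ± 0.43 SE, adjusted p = 0.0281). Between anti-SMARCA5 and IgG none of the 4 tested was called.

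Among receptors and signal carriers of GDF9 and BMP15, 10 of 14 genes were tested after maternal deletion, with 7 called higher, 1 lower and 2 not called, against 56.6% of all genes called in either direction. Of the 10, 8 would not have passed the filter on wild-type libraries alone. Bmpr1b, a type I receptor of BMP15, had medians of 121 and 17.9 CPM (adjusted p = 0.00487), and Bmpr2, the type II receptor for both ligands, 84.6 and 69.6 CPM (adjusted p = 0.00629). Smad3 and Smad4, which carry the signal to the nucleus, had medians of 162 and 54.4 CPM and of 87.1 and 31.2 CPM (adjusted p = 0.00104 and 0.000651). Smad7, an inhibitor of the pathway, was the gene that fell, from 62.1 to 10.1 CPM (log2 -1.71 ± 0.53 SE, adjusted p = 0.00556). Conversely, Smad7 would not have passed the filter on maternal deletion libraries alone. None of the 10 tested genes of this list was called between anti-SMARCA5 and IgG.

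Of the other oocyte growth factors and contact genes, 5 of 6 tested were called higher after maternal deletion and none lower, against 30.3% and 26.4% of all genes. The sixth, Gpr3, had medians of 99.9 and 101 CPM (adjusted p = 0.249), and Bmp6, Fgf8 and Gja4 would not have passed the filter on wild-type libraries alone. Fgf8, which cooperates with BMP15 on cumulus cells, had medians of 18.7 and 0 CPM (adjusted p = 9.49e-07), and Gja4, the gap junction protein linking oocyte and granulosa cells, 26.2 and 0 CPM (adjusted p = 4.34e-05). Kit, the receptor for granulosa KIT ligand, had medians of 344 and 128 CPM (log2 1.77 ± 0.30 SE, adjusted p = 3.56e-06). Kit was also the gene of this list called higher between anti-SMARCA5 and IgG (306 and 211 CPM, adjusted p = 0.0305), while Gpr3, whose product holds the oocyte in meiotic arrest, was called lower (45.9 and 86.1 CPM, adjusted p = 0.0413).

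Of 8 genes of the plasminogen activator system besides Plat, only the inhibitor genes Serpine2 and Serpini1 were expressed enough to be tested after maternal deletion, and both were called higher, against 30.3% of all genes. Neither would have passed the filter on wild-type libraries alone. Serpine2, an inhibitor of plasminogen activators, had medians of 301 and 12.4 CPM (log2 4.48 ± 0.44 SE, adjusted p = 1.23e-11), and all 28 maternal deletion libraries were above the wild-type median. Serpine2 was also called between anti-SMARCA5 and IgG, with medians of 45.7 and 24.0 CPM (log2 1.21 ± 0.29 SE, adjusted p = 0.025), where Plat itself was not. Of the 2-cell stage markers, 4 of 5 tested were called lower after maternal deletion and none higher, against 26.4% and 30.3% of all genes. The fifth, Zscan4d, had a log2 fold change of 0.27 (adjusted p = 0.766), and none of the 5 would have passed the filter on maternal deletion libraries alone. Obox3, for example, had a median of 0 CPM against 53.1 CPM in wild type (adjusted p = 2.75e-05).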

How the data were processed

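Single wells were processed as polyadenylated RNA-seq following scNMT-seq, per the labels' protocols. Reads were trimmed with Trim Galore 0.6.5 and cutadapt 2.3 and aligned with HISAT2 2.1.0 to GRCm38, per the submitters' processing notes. The authors deposited raw counts per gene in 2 tables, 1 per experiment. The counting tool, its strand setting and its treatment of reads with several alignments are not given in the sources used here. Of all values from 1 to 4, odd ones were the commoner: 134662 were 1, 30228 were 2, 84269 were 3 and 23199 were 4.

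The 25965 lines were summed by gene identifier to 25900 genes (57 identifiers stood on more than 1 line). No 2 libraries of a group agreed within sampling noise (smallest chi-square per degree of freedom 4.53). Each comparison was fitted over all genes with edgeR 4.0.16 (R 4.3.3: TMM, filterByExpr, robust quasi-likelihood F test) and adjusted by Benjamini-Hochberg over all genes tested, with calls at 0.05. Alternatives were DESeq2 1.42.0, other scalings, filters and depths, the replicate block, and left-out replicates and wells. The scripts were tested on simulated data. Replicate numbers mark shared pools in the design text. The main fit of each comparison left them out, and the replicate block, which enters them as pairing, was an alternative. The deletion effect minus the TrimAway effect was also fitted without them. Deviations of same-numbered groups correlated at 0.54 (deletion experiment), 0.59 (anti-SMARCA5 and IgG), 0.08 (anti-SMARCA5 and uninjected) and 0.42 (IgG and uninjected). Named genes are the 7 members, Smarca5, Trim21, the listed pathway and marker genes, and the 5 genes most like Gdf9, of which 1 is not reported here. The members and lists were chosen with earlier results of these data known. The 19 embryo libraries under 100000 counts, 2 of them at 0, were left out of the fits, among them all IgG libraries of replicate 2.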

Additional observations from a re-analysis of the deposited data

Results flagged for a closer look

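For 5 genes the response to the maternal deletion differed from the response to TrimAway in a direct test of the difference: 5.09 for Gdf9, 5.06 for Plat, 3.57 for Zp1, 2.62 for Zp2 and 1.66 for Zp3, on the log2 scale. The experiments also differ in embryo pools, sequencing table and control, and these cannot be told apart from the kind of SMARCA5 loss. Without wells A04, G05 and H05 the differences were 5.93, 5.59, 4.28, 2.96 and 2.08.

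Gdf9 was also counted in wells without an embryo. Well G03 had 11 Gdf9 counts among 823 in all, well H03 had 5 among 1875, and well F05 had 1 among 453. The first pair lies above the 3 counts taken as the limit of a count of 0. The source of these counts was not tested.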

How the results depend on the processing

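After maternal deletion, 76 of 77 values of the 7 genes under the alternatives kept their direction and side of the threshold. The exception was Oosp1 without replicate 1 (adjusted p = 0.0574). Calls over all genes were 4825, with 10416 when low counts were not filtered, 4907 with the replicate block, and 2801 to 3879 when 1 replicate was left out. The median of all genes tested was 0.18 with TMM and -0.036 with total counts only. Between anti-SMARCA5 and IgG, 65 of 70 values kept their side. The other 5 crossed to called: Plat with DESeq2, without a filter and with a minimum depth of 1, and Bmp15 with the replicate block (0.99) and without replicate 3 (1.31). The 317 calls over all genes became 999 with DESeq2, 64 with total counts only, 3010 without a filter, 150 and 623 with minimum depths of 500000 and 1, 2691 with the replicate block (312 in common), and 0 to 591 when 1 replicate was left out. Without replicate 1, where edgeR called 0, 1210 genes had an unadjusted p below 0.05. Between anti-SMARCA5 and uninjected, 13 of 70 values lost their call, and 2 uncalled ones reversed: Zp1 with total counts only (-0.042) and Oosp1 with the replicate block (-0.14). The 2999 calls became 6184 without a filter and 1 to 2921 with 1 replicate left out. Between IgG and uninjected, uncalled values reversed for Gdf9 with total counts only (-0.13), Oosp1 with the replicate block (-0.078), and Bmp15 and Oosp1, which ranged from -0.35 to 2.01 and from -0.63 to 0.88 with 1 replicate left out. The 0 calls became 269 with DESeq2, 881 without a filter, and 0 to 1 with 1 replicate left out (AC165327.2, named after its value was seen). The replicate block changed no other call of the 7 genes. The difference of the deletion effect between replicates went from 65 to 1060 calls without wells A04, G05 and H05, where Oosp1 reversed from -0.09 to 0.24. The ratio of Gdf9 to Bmp15 between anti-SMARCA5 and IgG, -0.17 and not called, ranged from -0.67 to 0.089 with 1 replicate left out. The ratio of Gdf9 to Plat after maternal deletion, -0.19 and not called, was 1.14 with a pseudocount of 10 CPM and ranged from -0.51 to 0.094 with 1 replicate left out. Between anti-SMARCA5 and IgG it went from -0.58 to -0.25 with that pseudocount and -0.36 with the replicate block, neither past the threshold, and ranged from -0.82 to -0.38 with 1 replicate left out. Where a value changed, the cause was not tested, except that leaving out replicates leaves fewer libraries. Plat had 3 or fewer counts in 13 wild-type libraries of 109007 to 9761208 counts and Zp1 in 9 of 109007 to 12004992, so deep and shallow libraries are among them.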
